A study of Mus musculus with 9 samples.

Results

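The epithelial sodium channel is built from 3 subunits, alpha (gene Scnn1a), beta (Scnn1b) and gamma (Scnn1g), and Prss8 encodes prostasin, a membrane-anchored serine protease that raises channel activity. These 4 genes were chosen by name, and all probe sets annotated to them in the deposited table of array signals were taken. Each gene had 1 probe set of 45101 on the array (1425088_at for Scnn1a, 1418475_at for Scnn1b, 1419079_at for Scnn1g and 1418320_at for Prss8). All 4 reached a signal of 200 on every array, so all were among the 18913 probe sets tested.

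RNA came from Reissner's membrane, the thin cellular sheet between the scala media and the scala vestibuli of the cochlea, dissected by hand from adult mice. There were 3 groups of 3 arrays, lettered A to C. The dexamethasone group held explants kept for 24 h with dexamethasone, a synthetic glucocorticoid, at 100 nM. The incubated group held explants kept for 24 h without it, and the fresh group held membranes extracted without incubation. That dose follows the design text and the array A label (arrays B and C carry a label in mM). The labels used here name no strain, sex or genotype. The design text describes pooled membranes with 3 chips for each biological sample, so SDs and p-values below measure the spread between chips, which may be technical, and not between animals.

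The channel sits in the apical membrane of sodium-absorbing epithelia, where sodium enters the cell and is then pumped out by the sodium pump on the opposite side. In the cochlea the epithelial layer of Reissner's membrane faces endolymph, a fluid low in sodium, and the channel is a route by which sodium can leave it. Corticosteroids raise channel activity in many epithelia, in part through transcription of subunit genes. The alpha and gamma subunits are activated when proteases such as furin and prostasin cut their extracellular loops, and the ubiquitin ligase Nedd4-2 (gene Nedd4l) removes the channel from the cell surface.

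In the annotation of the mouse assembly GRCm38.p6 (RefSeq), Scnn1a lies on chromosome 6 at 125314271-125344943. Scnn1g and Scnn1b lie next to each other on chromosome 7, at 121734420-121768482 and 121865038-121918728, with 96.6 kb and 0 annotated genes between them. Prss8 lies on the same chromosome at 127925717-127930149. The 250 bases before a start site were available for 2 of the 4 genes, and they are shown because these neighbouring genes changed by unequal amounts with dexamethasone, as described below. Both are RefSeq sequences of GRCm38.p6 on the plus strand, chr7:121734229-121734478 for Scnn1g and chr7:121864788-121865037 for Scnn1b, with CG dinucleotides in capitals.
Scnn1g: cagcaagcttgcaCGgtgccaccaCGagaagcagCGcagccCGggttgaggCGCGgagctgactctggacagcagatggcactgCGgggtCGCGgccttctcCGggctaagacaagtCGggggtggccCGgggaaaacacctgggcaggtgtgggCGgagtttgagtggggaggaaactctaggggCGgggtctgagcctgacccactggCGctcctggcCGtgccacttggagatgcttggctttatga
Scnn1b: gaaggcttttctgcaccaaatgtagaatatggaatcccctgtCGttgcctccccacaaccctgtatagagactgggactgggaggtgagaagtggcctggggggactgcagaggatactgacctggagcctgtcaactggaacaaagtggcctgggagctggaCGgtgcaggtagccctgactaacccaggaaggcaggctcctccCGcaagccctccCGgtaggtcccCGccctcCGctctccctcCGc
The Scnn1g window had 65.2% G or C and 16 CG dinucleotides, and the Scnn1b window had 60.8% and 7, against medians of 52.4% and 6 over 32851 promoter windows of that length. The last 59 bases of the Scnn1g window lie inside the gene's annotated span, which begins earlier than this start site. Neither window held the palindromic letters of a glucocorticoid response element (AGAACA, any 3 bases, TGTTCT, which reads the same on both strands), found in 0.00913% of all windows. Neither held its half-site on either strand (AGAACA or TGTTCT, 16.1% of windows, which counts the palindrome too) or TATAAA on the strand of the gene (7.59%). These counts speak only of these letters in these windows.

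The trimmed mean signal of each array was 500.0, and log2 signals of arrays of 1 group correlated at r = 0.984 to 0.989 across probe sets. Changes are log2 differences of group means ± SE of log2(signal + 32) from a single limma fit to all 9 arrays, with p-values adjusted over the 18913 probe sets by the Benjamini-Hochberg method. Calls were made at adjusted p under 0.05. Most of the array moved, so a call alone sets a gene little apart: 52.5% of probe sets were called for dexamethasone against incubated, 75.1% for incubated against fresh and 76.2% for dexamethasone against fresh. The scaling between arrays matters here. When arrays were scaled to their 9 hybridization controls (RNAs added in fixed amounts) in place of the whole array, the median change of all tested probe sets moved to -0.455 from 0.007 for dexamethasone against incubated, to 0.271 from -0.05 for incubated against fresh and to -0.148 from -0.005 for dexamethasone against fresh. Of the called probe sets, 9.1% were then higher for dexamethasone against incubated (51.5% with the authors' scaling), 69.1% for incubated against fresh (46.6%) and 39.3% for dexamethasone against fresh (49.6%). Changes are given relative to the whole array, with the value under hybridization-control scaling beside those of named genes that changed direction or call.

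The 4 transcripts did not respond alike. Scnn1a and Scnn1g were higher in dexamethasone than in incubated explants, while the change of Scnn1b did not pass the test and that of Prss8 was small and barely passed it. All 3 subunit transcripts were lower in incubated explants than in fresh membrane, and Prss8 showed no called change. Scnn1a in dexamethasone explants stood above its fresh level, Scnn1g stood a little below, and Scnn1b stayed at 46.6% of it.

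**Figure D1:**
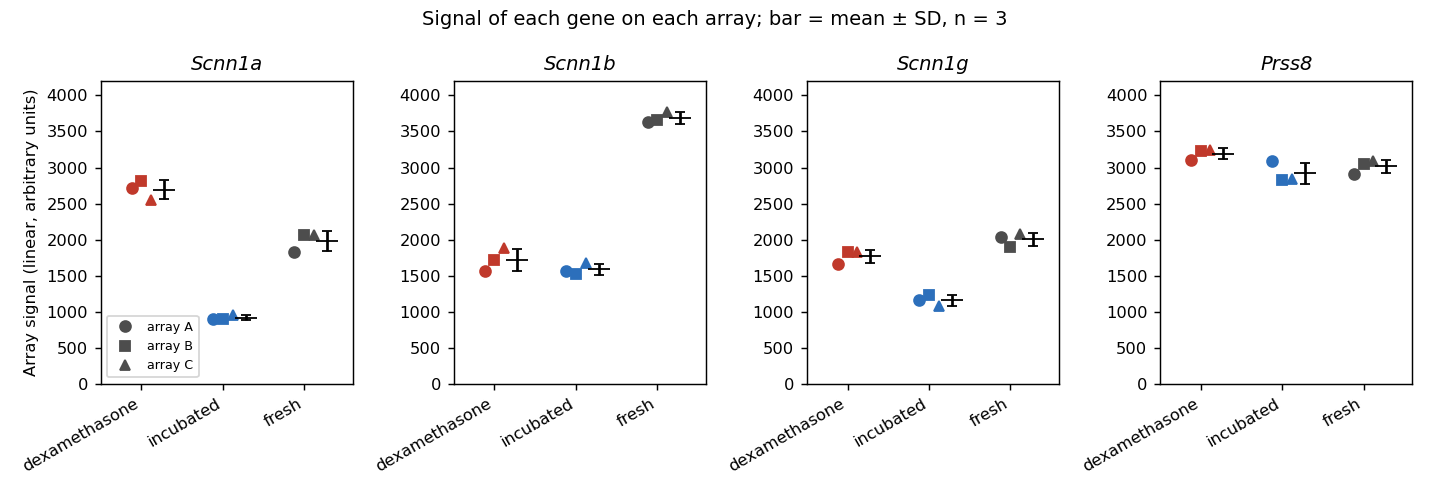
Linear array signal of Scnn1a, Scnn1b, Scnn1g and Prss8 on each of the 9 arrays, with symbols for arrays A to C and a bar for the mean ± SD (n = 3). Scnn1a is highest in dexamethasone arrays, Scnn1b and Scnn1g are highest in fresh arrays, and Prss8 lies between 2833.0 and 3244.0 on all 9.

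Scnn1a encodes the alpha subunit, which the channel needs for sodium current. Its signal was 2717.8, 2809.5 and 2550.1 in dexamethasone arrays A, B and C, against 900.1, 893.4 and 959.4 in incubated arrays A, B and C. Every dexamethasone array was above every incubated array, and 59.2% of tested probe sets had groups without overlap, in either direction. The change was 1.52 ± 0.063 (adjusted p = 4.29e-09), a 2.87-fold rise with a 95% interval of 2.61 to 3.15, and it was the 107th highest of 18913. With hybridization-control scaling Scnn1a was still called higher (1.04, adjusted p = 2.12e-08), against a median of -0.455.

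In fresh membrane the Scnn1a signal was 1825.4, 2059.7 and 2061.2 on arrays A, B and C. The incubated arrays, given above, were all lower, at 46.3% of the fresh mean (76.8% of tested probe sets had groups without overlap here), and Scnn1a fell by 1.08 on the log2 scale (SE 0.063, adjusted p = 7.24e-09). The dexamethasone arrays were all higher than the fresh arrays, at 135.8% of the fresh mean (77.9% of tested probe sets had groups without overlap here), and the change was 0.44 ± 0.063 (adjusted p = 3.50e-05). The order of Scnn1a levels was therefore dexamethasone, fresh, incubated, and no neighbours in that order overlapped. The calls of Scnn1a in all 3 comparisons held in the same direction under the 11 other settings run and when any 1 array was left out.

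Scnn1b encodes the beta subunit, which increases the number of channels at the membrane when it joins alpha. Its signal was 1564.2, 1714.5 and 1876.7 in dexamethasone arrays A, B and C, against 1561.2, 1525.5 and 1676.3 in incubated arrays A, B and C. The groups overlapped. The change of 0.11 ± 0.066 did not pass the test (adjusted p = 0.18), and its 95% interval ran from -0.03 to 0.25, or 0.977- to 1.19-fold. Without dexamethasone array A it passed as a rise (0.17, adjusted p = 0.0416), and with hybridization-control scaling it passed as a fall (-0.37, adjusted p = 0.00107), close to the median of -0.455.

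Fresh membrane gave the highest Scnn1b signals of the 3 groups, 3626.2, 3652.4 and 3776.8 on arrays A, B and C. Incubated explants held 43.1% of the fresh mean, and Scnn1b fell by 1.20 on the log2 scale (SE 0.066, adjusted p = 3.91e-09), the 1634th lowest change of 18913. Dexamethasone explants held 46.6% of it, and Scnn1b fell by 1.09 relative to fresh (SE 0.066, adjusted p = 8.33e-09). The order was fresh, then dexamethasone and incubated, which did not differ beyond their spread.

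Scnn1g encodes the gamma subunit, which carries an inhibitory stretch that proteases remove. Its signal was 1656.6, 1820.9 and 1822.2 in dexamethasone arrays A, B and C, against 1160.7, 1230.9 and 1071.8 in incubated arrays A, B and C, with no overlap. The change was 0.60 ± 0.066 (adjusted p = 1.07e-05), a 1.52-fold rise with a 95% interval of 1.37 to 1.67. With hybridization-control scaling the Scnn1g change was 0.12 and was not called (adjusted p = 0.167), still above the median of -0.455.

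The fresh arrays A, B and C gave Scnn1g signals of 2031.7, 1898.5 and 2074.1, above all other arrays. Incubated explants held 57.7% of the fresh mean, and Scnn1g fell by 0.78 on the log2 scale (SE 0.066, adjusted p = 2.26e-07). Dexamethasone explants held 88.3% of it, and Scnn1g was 0.18 lower on that scale (-0.18 ± 0.066, adjusted p = 0.0256). That last call ended with median centring (-0.14, adjusted p = 0.0664), and also without dexamethasone array A (adjusted p = 0.11), fresh array A (adjusted p = 0.0687) or fresh array C (adjusted p = 0.0858). The order of Scnn1g was fresh, dexamethasone, incubated, with the fresh and dexamethasone levels only marginally apart.

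Prss8, the prostasin gene, had a signal of 3105.2, 3232.7 and 3244.0 in dexamethasone arrays A, B and C, against 3090.1, 2833.0 and 2841.9 in incubated arrays A, B and C. The groups did not overlap, but incubated array A came close to the lowest dexamethasone array. The change of 0.13 ± 0.050 (adjusted p = 0.0487) was a 1.09-fold rise with a 95% interval of 1.01 to 1.18. This call did not hold under median centring (adjusted p = 0.0726), without the filter on low signals (adjusted p = 0.0862) or without 8 of the 9 arrays left out in turn (adjusted p of 0.0534 to 0.137), and Prss8 was called lower with hybridization-control scaling (-0.36, adjusted p = 5.05e-04). With arrays of 1 letter as a replicate block the adjusted p was 0.0732.

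In fresh arrays A, B and C the Prss8 signal was 2915.5, 3042.5 and 3091.4. These overlapped the incubated arrays, and the change of -0.05 ± 0.050 did not pass the test (adjusted p = 0.418), with a 95% interval of -0.16 to 0.06. It became a called rise with hybridization-control scaling (0.29, adjusted p = 0.00292) and a called fall with quantile normalization (-0.13, adjusted p = 0.0285). Dexamethasone arrays lay just above all fresh arrays, and that change of 0.08 ± 0.050 did not pass either (adjusted p = 0.156, interval -0.03 to 0.19), though it did with median centring (0.12, adjusted p = 0.0448) and turned negative with hybridization-control scaling (-0.07, adjusted p = 0.431). Prss8 had the narrowest range of the 4 genes over all 9 arrays.

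Counted over the 4 genes, 3 were called higher with dexamethasone against incubated, where 27.1% of tested probe sets were called higher and 25.5% lower. For incubated against fresh 3 of 4 were called lower, against 40.1% of tested probe sets called lower and 35.0% higher. For dexamethasone against fresh 1 was called higher and 2 lower, against 37.8% and 38.4%. These counts depend on the scaling. With hybridization controls they were 1 higher and 2 lower for dexamethasone against incubated, 1 higher and 3 lower for incubated against fresh, and 1 higher and 2 lower for dexamethasone against fresh. Median centring gave 2 higher in the first comparison and 2 higher and 1 lower in the third, and quantile normalization gave 4 lower in the second. The incubated arrays enter the first comparison as the baseline and the second as the changed group, so the opposite signs of Scnn1a and Scnn1g in them are not independent observations.

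**Figure D2:**
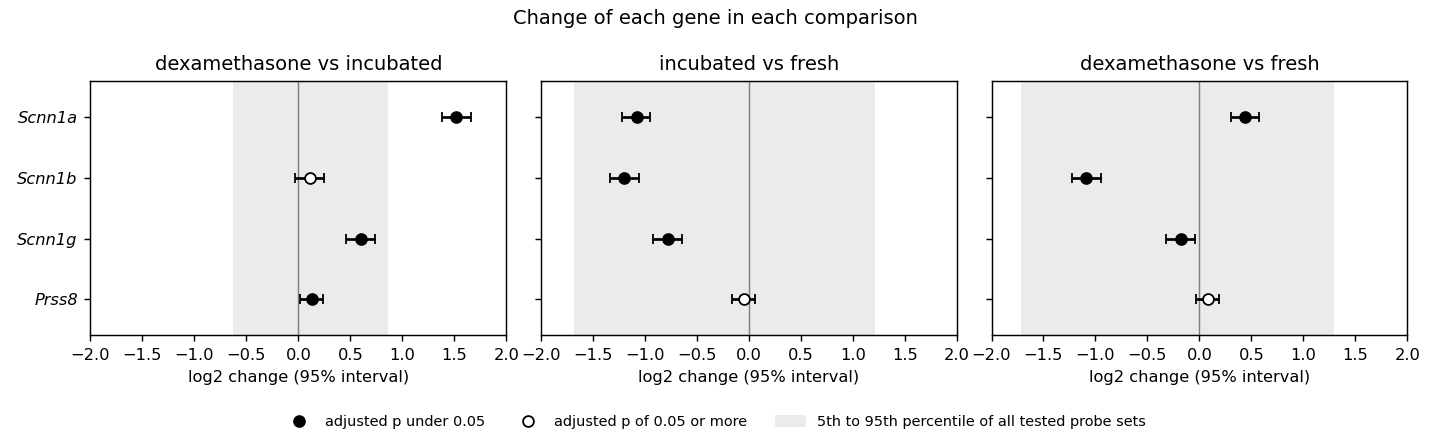
Log2 change of each gene in the 3 comparisons, with 95% intervals from the limma fit (n = 3 arrays a group); filled circles passed an adjusted p of 0.05, and the grey band spans the 5th to the 95th percentile of all tested probe sets. With dexamethasone against incubated, Scnn1a (1.52) lies outside the band of -0.62 to 0.85, and all other points lie inside theirs.

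The ratio of 2 transcripts on the same array hardly depends on the factor by which an array is scaled, so it shows whether the genes changed by unequal amounts. Probe sets differ in their response, so only changes in these ratios are compared, not their size. The log2 ratio of Scnn1a to Scnn1b was 0.78, 0.70 and 0.44 on dexamethasone arrays A, B and C, against -0.77, -0.75 and -0.79 on incubated arrays A, B and C. The difference between the group means was 1.41 ± 0.11, so Scnn1a gained more than Scnn1b with dexamethasone. Scnn1a also gained more than Scnn1g, by 0.92 ± 0.11, and Scnn1g gained more than Scnn1b, which changed by 0.49 less (-0.49 ± 0.11). The response order was alpha, gamma, beta, and no array of 1 group overlapped the other in any of these 3 ratios. Beside Prss8, Scnn1a gained 1.39 ± 0.078 and Scnn1g gained 0.47 ± 0.072, while the Scnn1b to Prss8 ratio overlapped between the groups (-0.02 ± 0.086). Over the 6 pairs, 3 arrays against 3 cannot give an exact two-sided permutation p below 0.10; 5 pairs gave that value (adjusted p = 0.12 over the 6 pairs), and Scnn1b with Prss8 gave 0.70. None of the pairs could pass 0.05.

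For incubated against fresh the same ratios showed smaller inequalities among the subunits. The log2 ratio of Scnn1a to Scnn1b was higher by 0.12 ± 0.049, that of Scnn1a to Scnn1g was lower by 0.30 (-0.30 ± 0.12) and that of Scnn1b to Scnn1g was lower by 0.42 (-0.42 ± 0.10). Scnn1g thus lost the least of the 3. All 3 subunits lost signal relative to Prss8, with changes of -1.04 ± 0.069 for Scnn1a, -1.15 ± 0.066 for Scnn1b and -0.73 ± 0.082 for Scnn1g. All 6 pairs were without overlap, although incubated array C and fresh array A both rounded to -0.15 for Scnn1a to Scnn1g, and gave the smallest exact p the design allows (0.10, adjusted p = 0.10).

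The tissue was next checked against markers of its cells. In whole tissue, fewer cells of a type and less RNA per cell cannot be told apart. Of 12 listed epithelial markers 11 were matched, among them the keratin genes Krt8 and Krt18 and the adhesion genes Epcam and Cdh1. All 11 had a mean signal above 200 in every group, although Elf3 (151.4) and Krt7 (198.3) were under 200 on fresh array C. Their summed signal was 100327 to 105941 in dexamethasone arrays, 87363 to 91507 in incubated arrays and 36551 to 38121 in fresh arrays. All 11 were called higher in incubated than in fresh arrays, with a median change of 1.39 (-0.04 over all 10242 tested genes, of which 36.0% were called higher and 40.7% lower). Between dexamethasone and incubated arrays, 8 were called higher and 1 lower with dexamethasone (median 0.25, against -0.03 over all genes, of which 22.3% were called higher and 28.7% lower), which became 0 higher and 8 lower with hybridization-control scaling.

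Set against the mean log2 signal of these 11 markers on the same array, all 4 transcripts were lower in incubated than in fresh membrane. The log2 ratio of Scnn1b to the markers was -1.77, -1.74 and -1.68 on incubated arrays A, B and C, against 1.12, 1.03 and 1.19 on fresh arrays A, B and C. Relative to the markers the change was -2.85 ± 0.052 for Scnn1b, -2.73 ± 0.058 for Scnn1a and -2.42 ± 0.11 for Scnn1g. Prss8, whose own signal showed no called change, was lower by this measure too (-1.69 ± 0.055). The size of these changes depends on the marker, since the markers rose by unequal amounts: against single markers the Prss8 change ran from -4.30 with Cldn6 to -0.44 with Epcam (median -1.44), and that of Scnn1a from -5.33 to -1.48 with the same markers. With dexamethasone against incubated, Scnn1a rose 1.33 ± 0.052 and Scnn1g rose 0.41 ± 0.096 beyond the markers, without overlap of the groups. Scnn1g did not exceed Krt7 (-0.05), and Scnn1b (-0.09 ± 0.084) and Prss8 (-0.07 ± 0.048) overlapped between groups. The exact two-sided permutation p was 0.10 wherever groups did not overlap, the smallest possible, and 0.40 for Scnn1b and 0.30 for Prss8 with dexamethasone (adjusted p = 0.40 for both over the 4 genes).

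**Figure D3:**
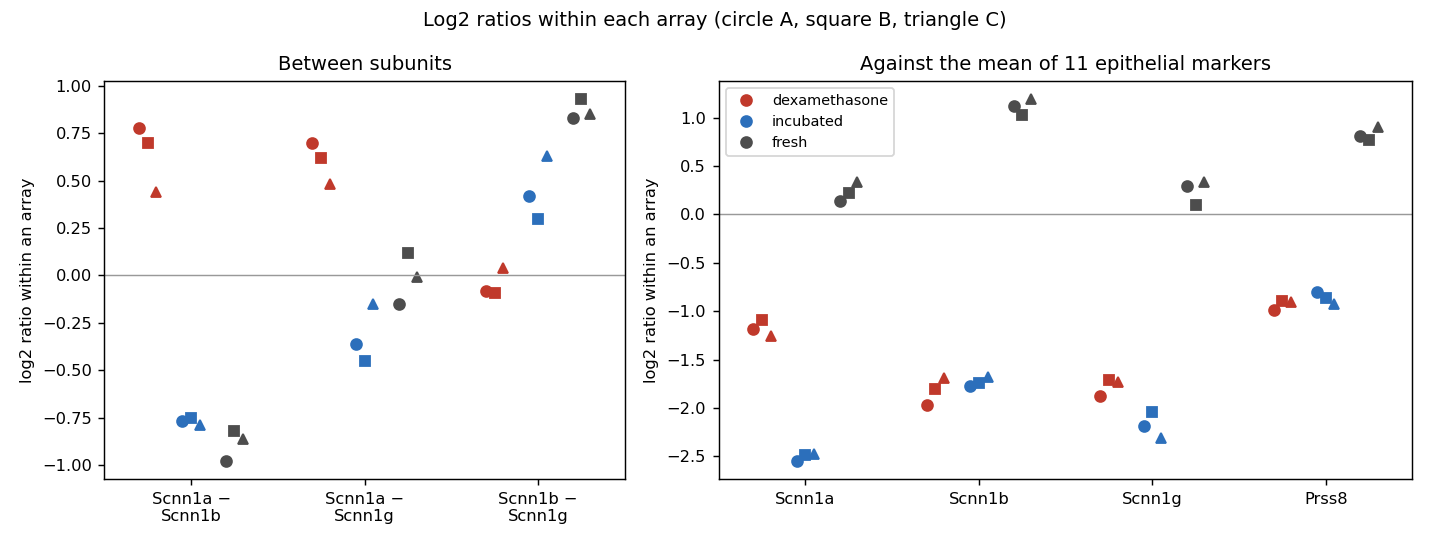
Log2 ratios within each array: between pairs of subunits (left) and between each gene and the mean log2 signal of 11 epithelial markers (right), for dexamethasone, incubated and fresh arrays (symbols mark arrays A to C). The Scnn1a to Scnn1b ratio is above 0 on all 3 dexamethasone arrays and below it on the other 6, and all 4 genes lie below the markers in explants and above them in fresh arrays.

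Markers of other cells of the membrane and its surroundings also moved. The 9 markers of sulcus, root and supporting cells, which are other cochlear cell types, summed to 3513 to 4014 in dexamethasone arrays, 2493 to 2590 in incubated arrays and 32720 to 33432 in fresh arrays. All 9 were called lower in incubated than in fresh arrays (40.7% of all genes), with a median change of -3.44, or -2.58 with dim groups at their bound. With dexamethasone 7 were called higher and 2 lower than in incubated arrays (22.3% and 28.7% of all genes), and 4 and 3 with hybridization-control scaling. The median was 0.41. It was 0.30 with the 3 genes under 200 in both groups left out and Gjb6 and Otog, under 200 in incubated arrays, at their bound. Under 200 on all 3 arrays were Fgfr3, Lgr5 and Sox2 in dexamethasone explants and those 3 with Gjb6 and Otog in incubated explants. The 7 strial marginal cell markers summed to 5009 to 5191 in dexamethasone, 5166 to 5347 in incubated and 24448 to 25718 in fresh arrays. The 7 fibrocyte markers summed to 5986 to 6738 in dexamethasone, 7136 to 7439 in incubated and 72936 to 75100 in fresh arrays. The 10 mesothelial and fibroblast markers, for the other layer of the membrane, summed to 14830 to 15883 in dexamethasone, 14292 to 16366 in incubated and 32785 to 34202 in fresh arrays. Each of these sums was lower in both explant groups than in fresh membrane. The mesothelial and fibroblast list was mixed. On incubation 2 of its 8 tested genes were called higher and 6 lower (36.0% and 40.7% of all genes). Against fresh, the mesothelial gene Msln was at least 6.01-fold higher in incubated and 4.71-fold higher in dexamethasone arrays, since all fresh arrays were under 200. The sum of the 10 neuronal markers was lower in explants as well, at 1015 to 1178 in dexamethasone, 1170 to 1279 in incubated and 24415 to 25518 in fresh arrays. The 5 Schwann cell markers summed to 14335 to 15715 in dexamethasone, 12046 to 12958 in incubated and 29707 to 30591 in fresh arrays. S100b made up much of the fresh sum, with a mean of 14751.9 there, against 242.6 in dexamethasone and 216.3 in incubated arrays. Of the 4 tested, 1 was called higher and 3 lower on incubation (36.0% and 40.7% of all genes). The higher gene was Mbp (0.11), and 5 of its 6 other tested probe sets were called in the other direction. For dexamethasone against fresh 2 were called higher and 2 lower (35.4% and 42.7% of all genes), with a median of -0.01. Mbp (0.39) was 1 of the 2 higher, and 5 of its 6 other tested probe sets again went the other way. The 3 red cell markers summed to 14 to 105 in dexamethasone, 136 to 176 in incubated and 2867 to 3061 in fresh arrays. The sum of the 10 macrophage markers was the exception, at 8718 to 8823 in dexamethasone, 7763 to 8248 in incubated and 6678 to 6938 in fresh arrays. This list was mixed too. On incubation 6 of its 9 tested genes were called higher and 2 lower (36.0% and 40.7% of all genes). Cd68 was at least 8.23-fold higher in incubated than in fresh arrays, since all fresh arrays were under 200. Csf1r was called lower (-1.11). For dexamethasone against fresh 7 were called higher and 2 lower (35.4% and 42.7% of all genes). RNA control probe sets differed as well: the 3′ to 5′ signal ratio of Gapdh was 5.02 to 5.47 in dexamethasone, 3.46 to 3.88 in incubated and 6.91 to 7.53 in fresh arrays. The same ratio of actin was 1.79 to 1.96 in dexamethasone and 1.86 to 1.96 in incubated arrays, which overlapped, and 3.97 to 4.26 in fresh arrays. The part of these differences in the subunit changes was not tested.

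Genes that act on the channel were then described as fixed lists. Of 15 serine proteases related to channel cleavage, 11 were tested, and with dexamethasone against incubated 4 were called higher and 2 lower, where 22.3% and 28.7% of all genes were (median 0.13 and, with 3 genes under 200 in both groups left out, 0.12, against -0.03 over all genes). Pcsk5, 1 of the 4, was under 200 in both groups. The counts became 0 higher and 5 lower with hybridization-control scaling. St14, whose product matriptase is a membrane protease that acts in a cascade with prostasin, had 6257.0, 6102.8 and 6061.6 in dexamethasone arrays A, B and C, against 4281.6, 4752.8 and 4666.3 in incubated arrays A, B and C. St14 rose by 0.43 ± 0.053 (adjusted p = 2.92e-05), a call that hybridization-control scaling ended (-0.06, adjusted p = 0.387). Hpn, the gene of the protease hepsin, fell by 0.65 on the log2 scale (SE 0.089, adjusted p = 6.99e-05), and Prss22 rose by 0.44 ± 0.088 (adjusted p = 0.00109), a call that hybridization-control scaling also ended (-0.03, adjusted p = 0.792). Furin, which cuts alpha and gamma inside the cell, did not pass (0.13 ± 0.094, adjusted p = 0.246) and was called lower with that scaling (-0.33, adjusted p = 0.00821).

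For incubated against fresh, 7 of the 11 proteases were called higher and 3 lower (36.0% and 40.7% of all genes; median 0.26, against -0.04), and 8 and 3 with hybridization-control scaling. St14 rose by 0.99 ± 0.053 (adjusted p = 2.83e-09), Hpn rose by 1.18 ± 0.089 (adjusted p = 8.22e-08), and Furin rose by 0.31 ± 0.094 (adjusted p = 0.010). The 3 lower genes, Elane, Pcsk5 and Pcsk6, were under 200 on all incubated arrays, so their falls are bounds of at least 1.64-, 1.75- and 1.70-fold; Elane was named after its values were seen. Of 6 listed protease inhibitors 4 were matched and tested. Spint1 rose by 0.95 ± 0.040 (adjusted p = 3.86e-10) and Spint2 fell by 0.67 (SE 0.048, adjusted p = 4.67e-08) on incubation, and both encode Kunitz-type inhibitors that act on prostasin and matriptase. Neither passed with dexamethasone against incubated (0.05 ± 0.040, adjusted p = 0.283, for Spint1 and -0.02 ± 0.048, adjusted p = 0.727, for Spint2). Of the 4 inhibitors Serping1 alone was called in that comparison (0.34 ± 0.057, adjusted p = 3.19e-04), where 22.3% of all genes were called higher and 28.7% lower. With hybridization-control scaling Spint1 (-0.44) and Spint2 (-0.51) were called lower and Serping1 was not called (-0.15, adjusted p = 0.0747). The median of the 4 was 0.02 with dexamethasone and 0.38 on incubation.

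Among 17 kinases and ubiquitin regulators of the channel, 16 were tested. Set against incubated explants, with dexamethasone 9 were called higher and 2 lower (22.3% and 28.7% of all genes), with a median of 0.18, against 3 higher and 12 lower with hybridization-control scaling. Wnk4, a kinase of renal and other salt transport, had 1038.7, 971.9 and 986.1 in dexamethasone arrays A, B and C, against 271.7, 275.8 and 200.5 in incubated arrays A, B and C, and rose by 1.88 ± 0.096 (adjusted p = 2.17e-08). Usp2, which encodes a protease that takes ubiquitin off the channel, rose by 0.87 ± 0.060 (adjusted p = 2.66e-07). Tsc22d3, a glucocorticoid-induced gene whose product aids channel activity in kidney cells, was at least 2.17-fold higher (adjusted p = 1.16e-07), since all incubated arrays were under 200. Sgk1, whose kinase blocks Nedd4-2, fell by 0.15 (SE 0.052, adjusted p = 0.028), and Nedd4l rose by 0.18 ± 0.047 (adjusted p = 0.00657), which turned to a called fall with hybridization-control scaling (-0.31).

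On incubation 4 of the 16 were called higher and 8 lower (36.0% and 40.7% of all genes; median -0.14), against 9 and 5 with hybridization-control scaling. Wnk4 fell by 2.89 (SE 0.096, adjusted p = 4.22e-11), Usp2 fell by 1.27 (SE 0.060, adjusted p = 1.11e-09) and Tsc22d3 was at least 4.97-fold lower (adjusted p = 1.48e-10). Nedd4l rose by 0.96 ± 0.047 (adjusted p = 1.56e-09), while 2 of its 3 other tested probe sets were called in the other direction. Wnk4, Usp2 and Tsc22d3 thus had their lowest mean signals in incubated arrays.

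Of 7 listed corticosteroid receptor and steroid enzyme genes 6 were matched and 5 tested. Relative to incubated explants, with dexamethasone 1 was called higher and 2 lower (22.3% and 28.7% of all genes; median -0.20, and -0.18 without 1 gene under 200 in both groups), against 1 and 4 with hybridization-control scaling. On incubation none was called higher and 4 lower (36.0% and 40.7% of all genes; median -0.77; 1 and 3 with hybridization-control scaling). Nr3c2, the mineralocorticoid receptor gene, had 936.7, 1078.9 and 1061.6 in dexamethasone arrays A, B and C, against 1520.4, 1514.3 and 1453.2 in incubated arrays A, B and C, and fell by 0.53 (SE 0.062, adjusted p = 1.73e-05). Nr3c1, the glucocorticoid receptor gene, fell by 0.20 with dexamethasone (SE 0.072, adjusted p = 0.0351) and by 0.77 on incubation (SE 0.072, adjusted p = 6.15e-07). Fkbp5, a receptor co-chaperone and classic glucocorticoid target, rose by 1.99 ± 0.10 with dexamethasone (adjusted p = 2.30e-08). Hsd11b2, which inactivates glucocorticoid in mineralocorticoid target cells, was under 200 in mean signal in each group (58.6 in dexamethasone, 37.4 in incubated and 36.8 in fresh arrays) and was not tested.

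For the sodium pump 9 of 12 listed subunit and modulator genes were matched and 8 tested. Dexamethasone explants had 2 called higher and 4 lower than incubated (22.3% and 28.7% of all genes; median -0.22; 0 and 6 with hybridization-control scaling), and on incubation 1 was called higher and 7 lower (36.0% and 40.7% of all genes; median -0.87; 2 and 4 with that scaling). Fxyd3, which encodes a small modulator of the pump, rose by 0.41 ± 0.049 with dexamethasone (adjusted p = 2.11e-05), a call that hybridization-control scaling ended (-0.08, adjusted p = 0.32). The beta subunit genes Atp1b2 (SE 0.068, adjusted p = 4.08e-05) and Atp1b1 (SE 0.045, adjusted p = 6.29e-05) fell by 0.53 and by 0.33. Of 5 acid-sensing channel genes, relatives of the sodium channel, 2 were tested, and both fell on incubation to under 200: Asic3 was at least 8.12-fold lower (adjusted p = 2.08e-11) and Asic1 at least 1.47-fold lower (adjusted p = 1.03e-05). Their median was -3.74, or -1.79 with both at their bound, and both were under 200 in both explant groups (median -0.16 with dexamethasone against incubated, neither called; Asic1 was called lower with hybridization-control scaling).

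**Figure D4:**
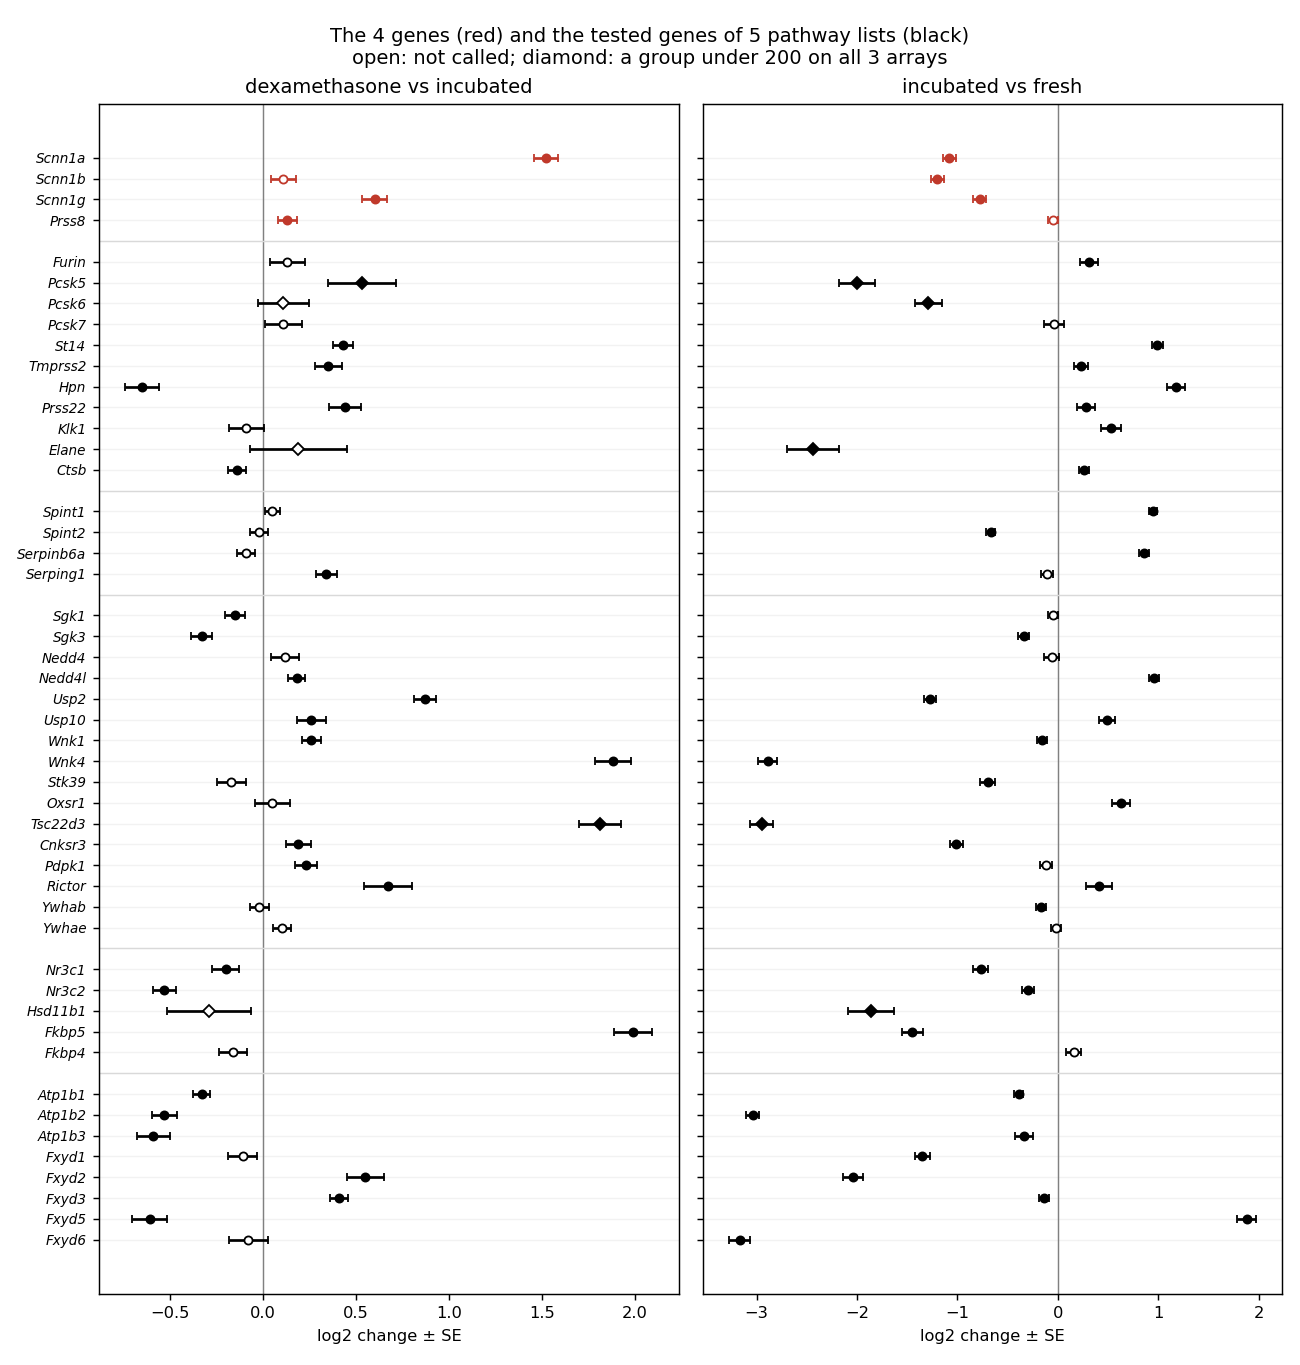
Log2 change ± SE for dexamethasone against incubated (left) and incubated against fresh (right) of the 4 genes (red) and the tested genes of 5 lists (black), from top to bottom proteases, protease inhibitors, kinases and ubiquitin regulators, receptors and steroid genes, and the sodium pump. Filled symbols were called and diamonds had a group under 200 on all 3 arrays; Scnn1a (1.52), Wnk4 (1.88), Tsc22d3 and Fkbp5 (1.99) lie farthest right with dexamethasone.

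The genes with the pattern most like each of the 4 were found over the 9 arrays among 10242 tested genes, by the root-mean-square difference of log2(signal + 32) after each gene was centred on its own mean. Nearest to Scnn1a were Pou3f4 (0.100), Il6ra (0.106), Ebf1 (0.138), Cfp (0.138) and Cybrd1 (0.168). Il6ra and Cybrd1 were dim, with mean signals under 200 in incubated arrays (74.7 and 48.5) and in fresh arrays (192.3 and 143.9), so their likeness rests on values below the working floor. Pou3f4, a transcription factor gene, had mean signals of 1673.5 in dexamethasone, 611.9 in incubated and 1356.3 in fresh arrays. Nearest to Scnn1b were Ncdn (0.060), Mtx3 (0.061), Dkk3 (0.065), Serpinf1 (0.067) and Fam193b (0.068), all with a dexamethasone change between 0.01 and 0.18. Nearest to Scnn1g were Zfp462 (0.061), Spats2l (0.072), Rell1 (0.078), Grhl1 (0.085), an epithelial transcription factor gene, and Tmem80 (0.086). Nearest to Prss8 were Cox17 (0.029), B3gat3 (0.032), Tmem222 (0.041), Dvl1 (0.041) and Rps7 (0.042). These genes were picked as the nearest, so every other gene was farther by construction. Between the subunit genes the difference was 0.397 for Scnn1a and Scnn1g, 0.383 for Scnn1b and Scnn1g and 0.701 for Scnn1a and Scnn1b. Prss8, which changed little, was nearer to Scnn1g (0.311) than either other subunit was. Among the neighbours of Scnn1a, Scnn1g ranked 168th and Scnn1b 4357th, while Scnn1a ranked 3924th among those of Scnn1g and 6852nd among those of Scnn1b.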

How the data were processed

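Per the labels, 9 Affymetrix arrays were hybridized after RNeasy Micro extraction and 2 in vitro transcription rounds for small samples. The deposited intensity values are linear, and the authors set the target signal at 500 (normalization factor 1) using all probe sets, per the labels. The software that summarised probes is not given in the sources used here. No detection calls were used, and a signal of 200 served as a working floor. Where all 3 arrays of 1 group were under 200, a change is a bound against 200.

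Probe sets were named from the platform annotation, with symbols updated by gene ID. Those reaching 200 on at least 3 of 9 arrays, controls excluded, were tested (18913). Of the 45101 probe sets, 34958 had 1 gene symbol, 932 several and 9211 none. limma 3.58.1 (R 4.3.3) fitted log2(signal + 32) with 1 mean per group to all 9 arrays, followed by trended eBayes and Benjamini-Hochberg adjustment. The fit was tested on simulated data. A gene of a list was represented by its tested probe set of highest mean log2 signal. Ratios within arrays were compared with exact two-sided permutation tests (SciPy 1.17.1). Python 3.11.15, pandas 2.3.3, NumPy 2.4.6 and matplotlib 3.10.9 handled tables and figures. The depth of an array is not a count, and the 3 arrays a group limit the precision of every value.

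Named genes were the 4 members, at most 4 genes of each list by adjusted p with those acting directly on a member, and the 5 genes nearest to each member. Serping1 and Asic1 fall under the list rule. Members, lists and the rule were chosen with earlier results of these data known. Arrays of 1 letter shared little deviation from group means, with correlations of -0.062 to 0.164 over 9 pairs. The highest was for the B arrays of dexamethasone and incubated. Whether arrays of 1 letter shared a batch was not tested. Alternatives were 3 scalings, 2 pseudocounts, 3 filters, no trend, 2 groups alone, the replicate block and each array left out. None of the 4 members had a second probe set to set beside the first. The comparison with single epithelial markers was added after the values were seen.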

Additional observations from a re-analysis of the deposited data

How the results depend on the processing

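The falls of Scnn1a, Scnn1b and Scnn1g on incubation, the rise of Scnn1a with dexamethasone and its higher level than in fresh membrane, and the lower Scnn1b level in dexamethasone than in fresh arrays kept direction and call under all 11 other settings and every left-out array. The rise of Scnn1a with dexamethasone ranged from 1.04 to 1.56. With hybridization-control scaling the dexamethasone changes against incubated were 0.12 for Scnn1g (not called), -0.37 for Scnn1b and -0.36 for Prss8 (both called lower), Prss8 was 0.29 on incubation (called higher) and -0.07 for dexamethasone against fresh, and Furin (-0.33), St14 (-0.06), Spint1 (-0.44) and Nedd4l (-0.31) turned negative with dexamethasone while Sgk1 (0.28) and Nr3c2 (0.04) turned positive on incubation; this scaling moved the median of the whole array, and why the controls differ between groups was not tested.

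Median centring gave -0.14 for Scnn1g against fresh (not called), and for Prss8 0.12 with dexamethasone against incubated (not called), 0.01 on incubation and 0.12 against fresh (called). Quantile normalization gave -0.13 for Prss8 on incubation (called) and 0.01 for its dexamethasone change relative to epithelial markers. The Prss8 change with dexamethasone was 0.13 and not called without a filter, with a floor of 100, without the trend, with the 2 groups alone and with the replicate block, which changed no other call of the 4 genes (9811 probe sets called with dexamethasone, against 9936).

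Leaving out 1 array gave 0.04 to 0.17 for Scnn1b and 0.11 to 0.17 for Prss8 with dexamethasone against incubated, and -0.21 to -0.13 for Scnn1g against fresh. The Scnn1b to Prss8 ratio ranged from -0.07 to 0.04, and Spint2 (-0.05 to 0.02) and Hsd11b1 (-0.48 to 0.05) also changed sign without 1 dexamethasone array. The floor of 200 limits what can be said of dim genes, and the causes of these shifts were not tested.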
